A study of Homo sapiens with 4 samples.

Results

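The SRSF genes encode the serine/arginine-rich splicing factors, or SR proteins. They were followed here in HEK293 cells, an immortalized line derived from human embryonic kidney, before and after transfection of a synthetic double-stranded RNA. The family was taken as 10 listed genes, and its members were the probes that the platform annotation assigns to them. Of the 10 genes, 9 had a named probe, with 11 probes between them, out of 18639 genes with a named probe. SRSF9 is not analysed here. All 9 genes were detected on all 4 arrays, as were 15738 genes in total. Both lines were HEK293 cells carrying a transgene: LGP2-4KR, a form of LGP2 that the labels do not spell out (4KR cells below), or LGP2 itself (LGP2 cells below). LGP2 is a helicase that binds double-stranded RNA and tunes RIG-I and MDA5 signalling. The groups were 4KR cells transfected for 12 h with short poly I:C at 100 ng/ml by Lipofectamine, 4KR cells at 0 h, LGP2 cells 12 h after the same transfection, and LGP2 cells at 0 h. Each group was 1 single-colour array of total RNA, so no group has a replicate and no difference within a line has an error. No array of mock-transfected cells, of cells left 12 h without RNA, or of HEK293 cells without a transgene was used here. The RNA, the transfection and the time in culture therefore cannot be told apart. The labels give neither the promoter of the transgenes nor whether each line is 1 clone.

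SR proteins bind exonic enhancers in pre-mRNA through RNA recognition motifs and recruit the spliceosome through arginine-serine (RS) domains. SRPK kinases in the cytoplasm and CLK kinases in the nucleus phosphorylate these domains, which sets where the proteins reside and when they act. Many SR protein genes also limit their own output by splicing in a poison exon or altering the 3′ end, which sends the transcript to nonsense-mediated decay. Infection and double-stranded RNA sensing are settings in which host splicing is known to shift.

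The 12 h arrays carried the interferon response. IFIT1, an interferon-induced RNA-binding protein, was higher at 12 h by 7.08 in 4KR cells and by 6.58 in LGP2 cells on the log2 scale. Its probe lies in block 24, where the arrays shift (described below). After the local position correction described there, IFIT1 was higher by 6.61 in 4KR cells and by 6.99 in LGP2 cells. IFNB1, the interferon-β gene, was higher by 4.04 in both lines, and ISG15, a ubiquitin-like modifier, by 4.82 in 4KR cells and 4.84 in LGP2 cells. DHX58, which encodes LGP2, read 42.6 in 4KR cells at 12 h and 22.8 at 0 h, and 51.0 in LGP2 cells at 12 h and 41.4 at 0 h, in the authors' deposited table. The DHX58 probe lies in block 24 as well, so it does not check the labels. All 7 HEK293 markers with a probe were detected on all 4 arrays, with summed deposited intensities of 1812 to 1916 at 12 h and 2324 to 2421 at 0 h. The 3 epithelial markers, also all detected, summed to 281.4 to 293.4 at 12 h and 219.9 to 223.2 at 0 h. The leukocyte marker PTPRC was detected on no array, while CD3E, CD14 and LYZ were detected on all, and the 4 summed to between 40.4 and 47.3. Of 4 fibroblast markers, DCN alone was detected on all arrays, and the 4 summed to 94.8 in 4KR cells at 12 h and 82.3 at 0 h, and to 49.7 in LGP2 cells at 12 h and 81.2 at 0 h. The part of these shifts in the results was not tested. Between 83.2% and 89.2% of gene probes were detected per array, and both 12 h arrays stood above both 0 h arrays in this share.

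Of the 9 measured SRSF genes, 8 had a higher level at 12 h than at 0 h in both lines, and SRSF7 had a lower level in both, except that SRSF3 in 4KR cells was slightly lower at 12 h in the authors' deposited table and after a local position correction, and SRSF7 was slightly higher with the arrays left unnormalized. Levels here are log2 intensities after background correction and quantile normalization over the 4 arrays. A response is the 12 h level minus the 0 h level of the same line. In bulk RNA, fewer responding cells and less RNA per cell cannot be told apart. In 4KR cells 8 of 9 members had a response above 0, against 44.7% of all genes detected on all 4 arrays, and in LGP2 cells 8 of 9 did, against 44.4%. The median response of the members was 0.28 in 4KR cells and 0.45 in LGP2 cells, where the median of all genes was -0.01 in both lines. For 8 members both 12 h arrays lay above both 0 h arrays, an order that 28% of all genes showed. For SRSF7 both 12 h arrays lay below both 0 h arrays, as for 36.8% of all genes.

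**Figure D1:**
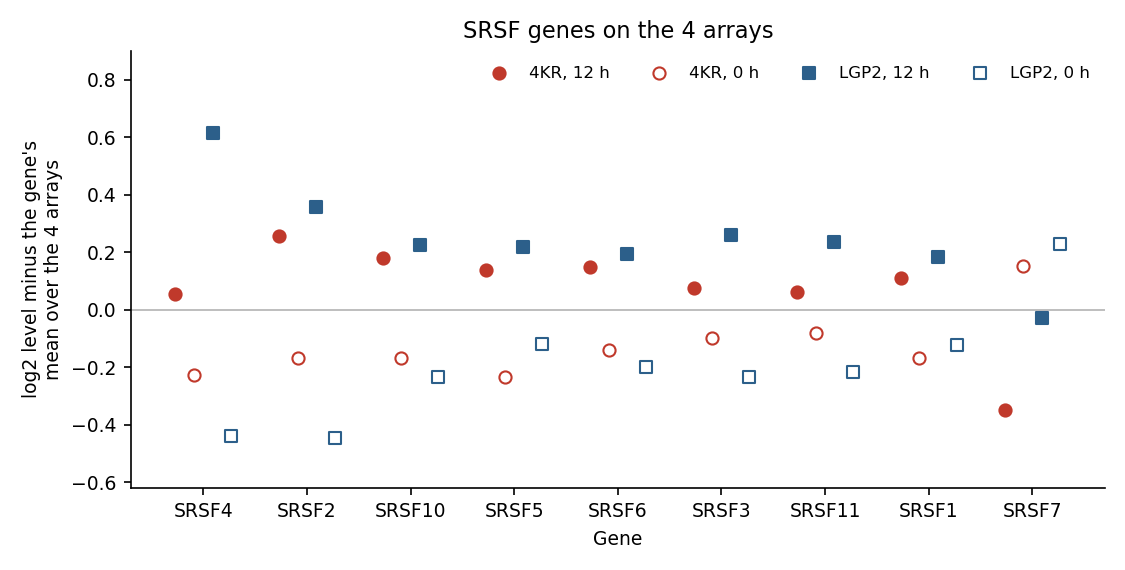
Quantile-normalized log2 level of each SRSF gene on the 4 arrays, minus the gene's mean over those arrays, with 1 point per array. Filled points (12 h) lie above open points (0 h) for 8 genes and below them for SRSF7.

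The test used here treats the 2 lines as replicates of stimulation, although they carry different transgenes, and compares 12 h with 0 h within each line. Its residual is the difference between the 2 responses, so it asks only whether their mean is large against that difference. The SE combines that difference with the variance of all genes, and it is not an error measured within a line. In that additive limma fit, with 1 residual degree of freedom, 4 members rose at an adjusted p under 0.05 (Benjamini-Hochberg over 17085 genes) and 0 fell. They were SRSF1, SRSF5, SRSF6 and SRSF10. Over all genes 7.95% rose and 7.3% fell in the same fit. At an unadjusted p under 0.05, 8 members were higher (15.5% of all genes) and 1, SRSF7, was lower (17.4% of all genes). The 4 calls are of modest size, between 0.29 for SRSF1 and 0.40 for SRSF10. The same fit gave 1 member, SRSF6, on log2 values of the authors' deposited table, and 0 after plain subtraction of the blank level. Shares of all genes called in those settings are not given here, so these lower counts may not be particular to the members.

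Past 1.5-fold, 0 members were higher in 4KR cells (1.54% of all genes) and 0 lower (0.41% of all genes). In LGP2 cells SRSF2 and SRSF4 were past 1.5-fold higher, 2 of 9 members against 1.83% of all genes, and 0 were past 1.5-fold lower against 0.498%. SRSF4 alone passed 2-fold in LGP2 cells, as did 0.427% of all genes. Neither call of SRSF4 held after a local position correction described further on.

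**Figure D2:**
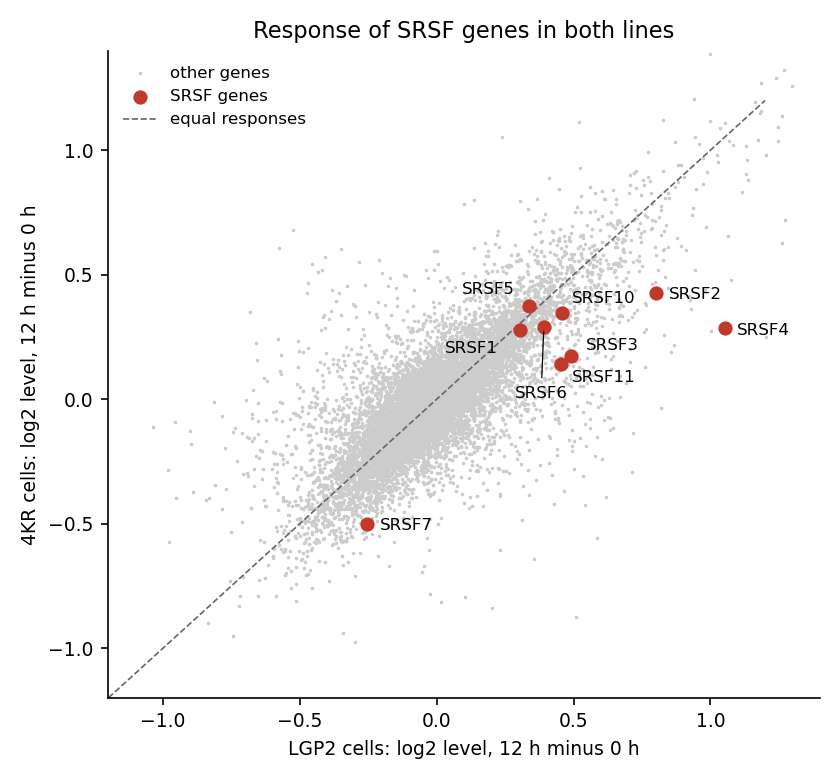
Response to transfection (log2 level, 12 h minus 0 h) in 4KR cells on the vertical axis and in LGP2 cells on the horizontal axis, for the 9 SRSF genes (red) and other genes detected on all 4 arrays (grey). The dashed line marks equal responses, and genes outside the plotted range are not drawn. SRSF2 and SRSF4 lie farthest to the right among the members, and SRSF7 lies below 0 on both axes.

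SRSF1, SRSF3 and SRSF7 shuttle between nucleus and cytoplasm and act as adaptors for mRNA export. SRSF1, the prototype of the family, had deposited intensities of 1829 in 4KR cells at 12 h and 1679 at 0 h, and of 2110 in LGP2 cells at 12 h and 1838 at 0 h. On this scale, on which the authors set each array's median to 25, each line was higher at 12 h, but the 12 h and 0 h groups overlapped. Quantile-normalized log2 levels separated the times, at 11.94 and 12.02 at 12 h against 11.66 and 11.71 at 0 h (4KR cells, then LGP2 cells, in each pair). SRSF1 responded by 0.28 in 4KR cells and by 0.31 in LGP2 cells, and rose by 0.29 ± 0.031 (SE) in the additive limma fit (adjusted p = 0.0281), although in the deposited table its response minus the median of all genes was -0.023 in 4KR cells and -0.046 in LGP2 cells.

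SRSF3, the smallest SR protein, also takes part in choosing polyadenylation sites. Its deposited intensities were 1861 in 4KR cells at 12 h and 1882 at 0 h, and 2389 in LGP2 cells at 12 h and 1759 at 0 h. Here only the LGP2 array at 12 h stood clear of the rest, and 4KR cells were slightly lower at 12 h. After quantile normalization the response was 0.17 in 4KR cells and 0.49 in LGP2 cells, and the additive limma estimate of 0.33 ± 0.093 (SE) did not pass (adjusted p = 0.115).

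SRSF7, which carries a zinc knuckle beside its RNA recognition motif, was the member that ran against the family. Its deposited intensities were 304.9 in 4KR cells at 12 h and 435.1 at 0 h, and 419.7 in LGP2 cells at 12 h and 469.1 at 0 h. Both 12 h arrays were below both 0 h arrays on the deposited and on the normalized scale. The response was -0.50 in 4KR cells, at percentile 1.06 of all genes, and -0.25 in LGP2 cells, at percentile 8.04. The additive limma estimate was -0.38 ± 0.074 (SE), with an adjusted p of 0.0629. With the arrays left unnormalized the estimate was 0.026, and all genes together were then higher at 12 h, by a median of 0.28 in 4KR cells and 0.13 in LGP2 cells.

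SRSF2 stays in the nucleus and is widely used as a marker of nuclear speckles. Its deposited intensities were 1925 in 4KR cells at 12 h and 1581 at 0 h, and 2310 in LGP2 cells at 12 h and 1363 at 0 h. Both 12 h arrays exceeded both 0 h arrays, with the widest gap in LGP2 cells. The response was 0.43 in 4KR cells and 0.80 in LGP2 cells, a 1.74-fold higher level at percentile 99.3 of all genes. The additive limma estimate of 0.61 ± 0.108 (SE) did not pass (adjusted p = 0.0524).

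SRSF4, SRSF5 and SRSF6 are closely related SR proteins in which an RNA recognition motif is followed by a second, atypical one. SRSF4 had deposited intensities of 514.2 in 4KR cells at 12 h and 425.0 at 0 h, and of 831.3 in LGP2 cells at 12 h and 368.3 at 0 h. The LGP2 array at 12 h was the highest and the LGP2 array at 0 h the lowest, so the 4KR arrays lay between them, and the times did not overlap. The response was 0.28 in 4KR cells and 1.05 in LGP2 cells, a 2.07-fold higher level at percentile 99.6 of all genes. After the local position correction the LGP2 response was 0.57, below 1.5-fold. The additive limma estimate of 0.67 ± 0.214 (SE) did not pass (adjusted p = 0.145).

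SRSF5 is known to be serum- and insulin-responsive in other cells. Its deposited intensities were 995.3 in 4KR cells at 12 h and 828.8 at 0 h, and 1164 in LGP2 cells at 12 h and 918.4 at 0 h. Both 12 h arrays were above both 0 h arrays. With responses of 0.37 in 4KR cells and 0.34 in LGP2 cells, it rose by 0.35 ± 0.031 (SE) in the additive limma fit (adjusted p = 0.0251).

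SRSF6, like its relatives, carries a long RS domain. Its deposited intensities were 124.9 in 4KR cells at 12 h and 87.1 at 0 h, and 141.3 in LGP2 cells at 12 h and 83.4 at 0 h, with no overlap between the times. The normalized responses of 0.29 in 4KR cells and 0.39 in LGP2 cells are shrunk by the offset of 50 that the background correction adds. SRSF6 rose by 0.34 ± 0.041 (SE) in the additive limma fit (adjusted p = 0.0316).

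SRSF10 represses splicing when it is dephosphorylated, as it is after heat shock, and was the only member with several probes. The probe in block 4 read 468.8 in 4KR cells at 12 h and 365.6 at 0 h, and 569.6 in LGP2 cells at 12 h and 400.1 at 0 h. The probe in block 6 read 127.1 and 87.8 in 4KR cells and 135.1 and 77.9 in LGP2 cells, and the probe in block 13 read 242.1 and 164.3 in 4KR cells and 271.8 and 148.2 in LGP2 cells (12 h, then 0 h). Each probe alone separated 12 h from 0 h. Their responses were 0.32, 0.31 and 0.40 in 4KR cells and 0.38, 0.41 and 0.57 in LGP2 cells (blocks 4, 6 and 13). The span between the probes, 0.097 in 4KR cells and 0.19 in LGP2 cells, compares with medians of 0.0942 and 0.106 over the 2081 genes with several probes. The mean of the probes rose by 0.40 ± 0.043 (SE) in the additive limma fit (adjusted p = 0.0284).

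SRSF11 is a more distant member that interacts with the U2AF splicing factor. Its deposited intensities were 658.6 in 4KR cells at 12 h and 602.9 at 0 h, and 803.1 in LGP2 cells at 12 h and 563.6 at 0 h. Both 12 h arrays were above both 0 h arrays, more widely in LGP2 cells. The response was 0.14 in 4KR cells and 0.45 in LGP2 cells, and the additive limma estimate of 0.30 ± 0.091 (SE) did not pass (adjusted p = 0.133). The further family genes SRSF8 and SRSF12, which the member list does not hold, did not pass either, with responses of 0.04 in 4KR cells and 0.13 in LGP2 cells for SRSF8 and of 0.02 and -0.09 for SRSF12.

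Which transcripts the probes read limits what a level means for genes with poison exons. By the platform annotation, 6 of the 11 probes are assigned to non-coding records, those of SRSF1, SRSF2, SRSF3, SRSF5 and SRSF6 and the SRSF10 probe in block 4. The coding and non-coding isoforms of these genes cannot be told apart here. For SRSF10 the probe on a non-coding record (block 4) and those on coding records (blocks 6 and 13) were all higher at 12 h.

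The arrays also allowed a comparison of the lines. The response in 4KR cells minus that in LGP2 cells was above 0 for 1 of 9 members (SRSF5), against 49.3% of all genes, and the members' median was -0.25. SRSF4 had the lowest difference, -0.77, and was the only member past 1.5-fold lower, as were 0.426% of all genes. The differences of SRSF2, SRSF3, SRSF11 and SRSF7 were -0.38, -0.32, -0.31 and -0.25, and those of SRSF10, SRSF6, SRSF1 and SRSF5 were -0.11, -0.10, -0.027 and 0.036. Over the processing settings described at the end, the differences of SRSF1, SRSF5, SRSF6 and SRSF10 changed sign, reaching 0.25, 0.25, 0.089 and 0.096. Relative to the median of all genes, those of SRSF1, SRSF5 and SRSF6 still changed sign. The differences of SRSF2, SRSF3, SRSF4, SRSF7 and SRSF11 stayed below 0. None of these differences was tested, and each draws on all 4 arrays.

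The lines were also compared at each time, without a test. At 12 h, 0 of 9 members were higher in 4KR cells than in LGP2 cells, against 49.4% of all genes, with SRSF4 lowest at -0.56 and SRSF7 next at -0.32. The share over all genes is not matched for position on the array, and values of neighbouring probes are given below. At 0 h, 6 of 9 members were higher in 4KR cells, against 54.7% of all genes, with SRSF2 highest at 0.28 and SRSF4 next at 0.21. With the arrays left unnormalized, SRSF1, SRSF2, SRSF5, SRSF6, SRSF10 and SRSF11 were above 0 at 12 h, and after the local position correction described next SRSF6 was, at 0.13. These comparisons share their arrays with the responses and are not separate evidence.

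Part of the difference between the lines moved with position on the array. The spots form 24 printed blocks, and the block medians of the difference of the responses were -0.11 in block 20, -0.15 in block 21 and 0.22 in block 24, while in the other blocks they lay between -0.034 and 0.082. SRSF3 lies in block 20 and SRSF4 in block 21. Around SRSF4 lay 25 probes of like brightness (mean log2 level above 8) within 4 rows and 10 columns. Their median difference was -0.63, close to the -0.77 of SRSF4 itself. Those neighbours had a median response of 0.48 in LGP2 cells, and their median in 4KR cells was -0.15. Around SRSF3 the neighbours' median response was 0.21 in 4KR cells and 0.43 in LGP2 cells, close to the 0.17 and 0.49 of SRSF3 itself. Neighbours of SRSF2 had a median difference of -0.21, and those of SRSF11 one of -0.052. Around SRSF6 and SRSF7 it was -0.13 each, around SRSF1 0.037 and around SRSF5 0.13. Around the SRSF10 probes it was 0.00045, -0.00057 and -0.17 (blocks 4, 6 and 13). At 12 h the neighbours' median of 4KR minus LGP2 was -0.42 around SRSF4, -0.17 around SRSF6 and -0.16 around SRSF3. It was -0.11 around SRSF7 and SRSF11, -0.033 around SRSF2, -0.025 around SRSF5 and 0.052 around SRSF1. Around the SRSF10 probes it was -0.015, 0.027 and -0.11 in the same order.

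**Figure D3:**
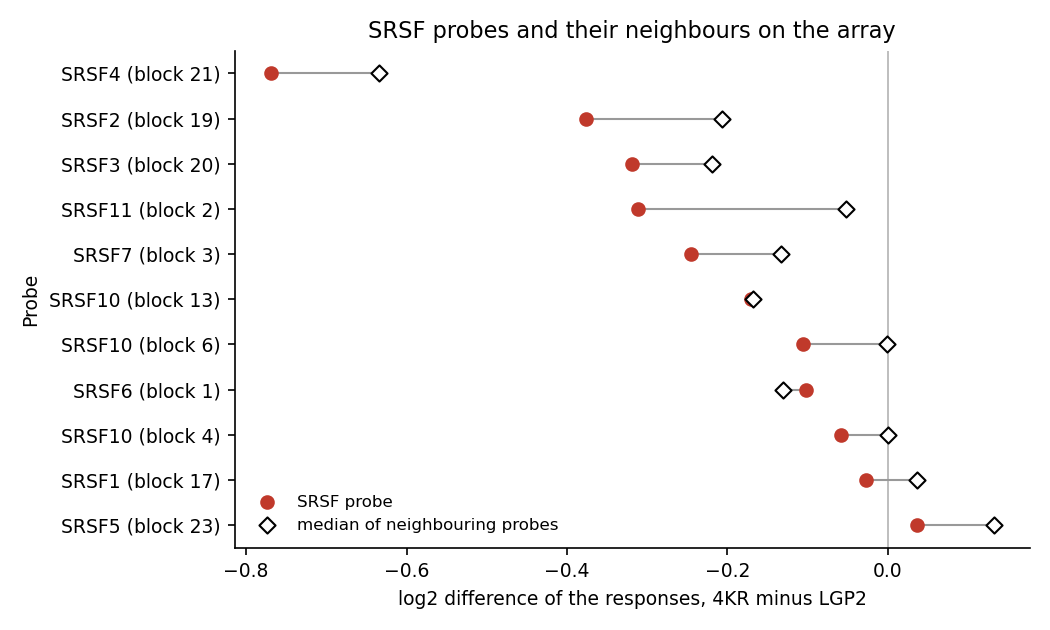
Difference of the responses (4KR minus LGP2, log2) of each of the 11 SRSF probes (red) and the median of the neighbouring probes of like brightness in the same block (open diamonds). The neighbours of SRSF4 sit at -0.63, near the probe's own -0.77, whereas those of SRSF11 sit near 0.

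Subtracting the neighbours' deviation on each array, a step chosen after seeing the data, left SRSF4 at 0.44 in 4KR cells and 0.57 in LGP2 cells, a difference of -0.13. SRSF3 was left with -0.039 in 4KR cells and 0.06 in LGP2 cells. SRSF2 was left with 0.55 in 4KR cells and 0.72 in LGP2 cells. SRSF11 then had the largest difference, -0.26, and SRSF7 remained lower at 12 h, at -0.30 in 4KR cells and -0.19 in LGP2 cells. In the additive limma fit on these values 7 members rose, against 17.5% of all 16690 genes tested, and SRSF7 fell, as did 13.4% of all genes. SRSF7 stood at -0.24 ± 0.039 (SE, adjusted p = 0.012) and SRSF3, the member without a call, at 0.01 ± 0.037 (SE, adjusted p = 0.872). Calls were thus more frequent over all genes than without the correction.

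**Figure D4:**
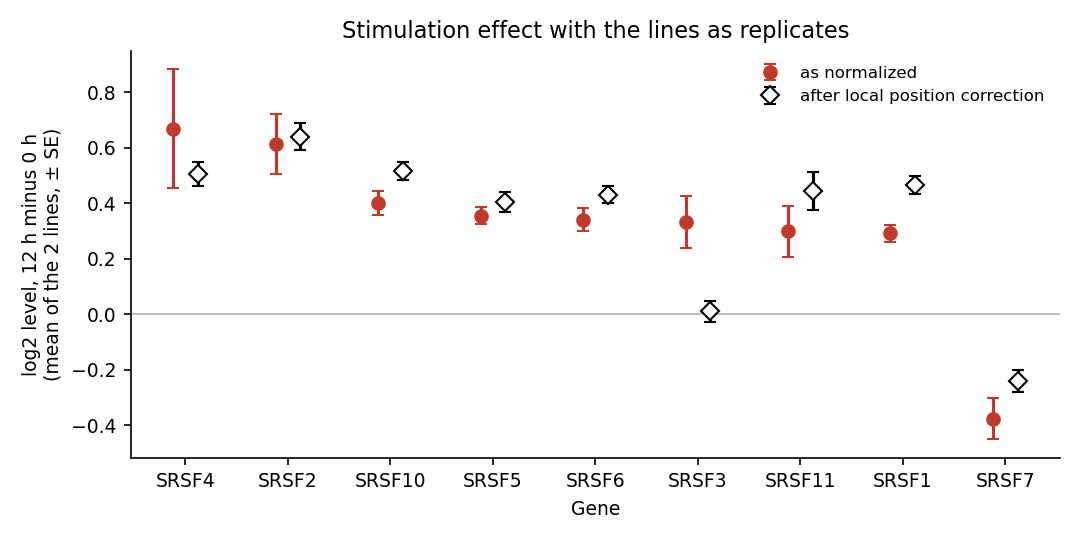
Additive limma estimate of stimulation (log2 level, 12 h minus 0 h, mean of the 2 lines) with its SE, for each SRSF gene as normalized (red) and after the local position correction (open diamonds). SRSF3 moves to 0.01 under the correction, 7 other genes also stay above 0 and SRSF7 stays below 0.

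Some enzymes that act on SR proteins changed at 12 h as well. Of the 10 listed kinase, phosphatase and import genes detected on all arrays, 4 rose and 1 fell in the additive limma fit (7.95% and 7.3% of all genes), and the 4 were CLK1 to CLK4. The median mean response of the list was 0.10. CLK1, whose own splicing is regulated by its kinase activity, had deposited intensities of 331.9 in 4KR cells at 12 h and 159.8 at 0 h, and of 346.7 in LGP2 cells at 12 h and 165.8 at 0 h. It rose by 0.83 ± 0.040 (SE, adjusted p = 0.0214). CLK2, CLK3 and CLK4, named here after their values were seen, rose by 0.26, 0.31 and 0.34 (adjusted p = 0.0308, 0.042 and 0.0259).

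PPP1CA, a catalytic subunit of protein phosphatase PP1, which removes RS domain phosphates, fell by 0.37 (adjusted p = 0.025). PPP1CB, another such subunit, had -0.16 in 4KR cells and -0.67 in LGP2 cells in block 24. SRPK1 had 0.13 in 4KR cells and 0.76 in LGP2 cells (adjusted p = 0.206). It lies in block 21 with SRSF4, and after the local correction its values were 0.19 in 4KR cells and 0.27 in LGP2 cells.

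Among other SR-related genes, 6 of 25 rose (7.95% of all genes) and 0 fell (7.3%), with a median of 0.12 for the mean response of the lines, where the SRSF genes had 0.34 and all genes -0.015. PNN, a desmosome and speckle protein, rose by 0.59 (adjusted p = 0.0233), and TRA2B, a splicing activator that pairs with SR proteins, by 0.59 (adjusted p = 0.0285). TRA2B lies in block 21 and was at 0.47 after the local correction. The lowest of the list were ACIN1 at -0.095 and SCAF8 at -0.067, which did not pass.

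The hnRNP proteins often oppose SR proteins at splice sites. Of 25 hnRNP genes, 3 rose (7.95% of all genes) and 0 fell (7.3%), with a median of 0.042. PTBP2, the neuronal relative of the repressor PTBP1, rose by 0.67 (adjusted p = 0.0231) and HNRNPAB by 0.39 (adjusted p = 0.04). PCBP2 was at -0.40 in block 24 and HNRNPA2B1 at -0.25, and neither passed.

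Of 11 nonsense-mediated decay and exon junction genes, 2 rose (7.95% of all genes) and 0 fell (7.3%), with a median of 0.092. SMG9, a regulator of the SMG1 kinase, rose by 0.46 (adjusted p = 0.0336), while UPF2 in block 20 was at 0.51 without passing (adjusted p = 0.107). SMG6 and CASC3 were the lowest, at -0.12 and -0.085. Of 39 core spliceosome genes, 4 rose (7.95% of all genes) and 2 fell (7.3%), shares near those of all genes, with a median of -0.009, beside -0.015 for all genes. PRPF3, a tri-snRNP protein in block 20, rose by 0.66 (adjusted p = 0.0337) and was at 0.39 after the local correction. SF3B1, which recognizes the branch site, fell by 0.22 (adjusted p = 0.0398). SF3B5 in block 20 was at 0.42 (0.16 after the local correction) and EFTUD2 at -0.24, both without passing.

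**Figure D5:**
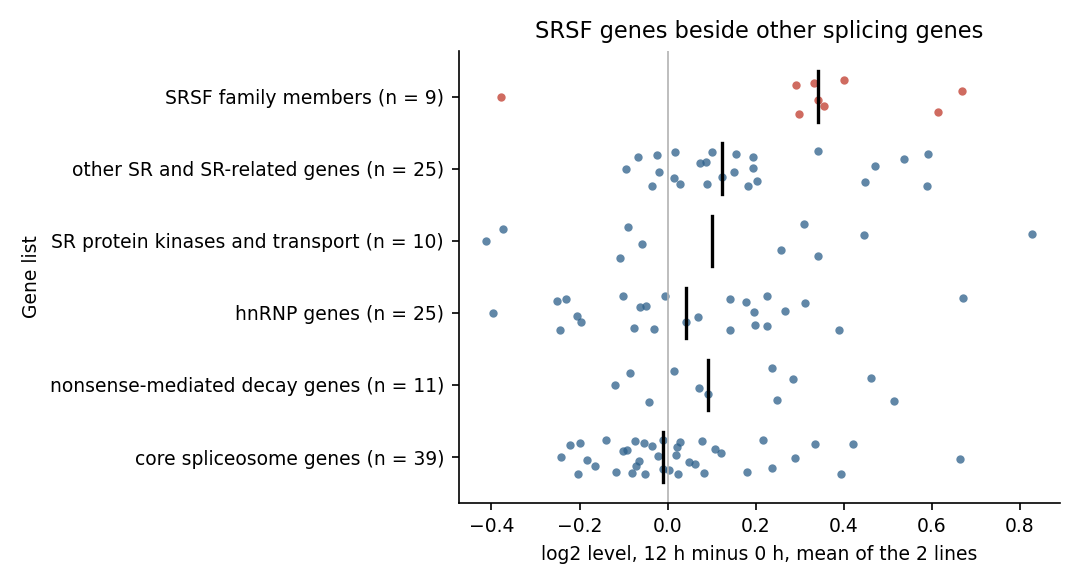
Mean response of the 2 lines (log2 level, 12 h minus 0 h) for each gene of the splicing lists detected on all 4 arrays, with 1 point per gene and a black bar at the median. The SRSF genes (red) have 8 of 9 points above 0, and the core spliceosome genes centre near 0.

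The genes most like a member were sought by the Euclidean distance of the 4 log2 levels, each minus its mean. For SRSF4 they were ZNF195 and MSH6, both in block 21, and RIF1 in block 20, at distances of 0.14, 0.15 and 0.153. For SRSF7 in block 3 they were SREBF2, SUB1 and EMD, at 0.0434, 0.044 and 0.0552, all in block 1. SREBF2 had responses of -0.48 in 4KR cells and -0.24 in LGP2 cells.

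Promoters were set against these responses, since 8 members were higher together and SRSF7 was not. RefSeq (GRCh38.p14) windows of 300 bases, from 250 before to 50 after the gene start, were given for 9 of the 10 listed genes, SRSF9 included and SRSF2 not, in 11 windows (SRSF7 and SRSF11 have 2 each). The windows shown are those of SRSF4 and SRSF5 (higher at 12 h), SRSF7 (lower) and, for contrast, the interferon target IFIT1. Capitals mark, on either strand, the core of the interferon-stimulated response element or ISRE (GAAA, any 2 bases, GAAA), the short cAMP response element or CRE motif TGACG and the ETS core CCGGAAG. They are SRSF4 at chr1:29181851-29182150 (minus strand), SRSF5 at chr14:69766892-69767191 (plus), SRSF7 at chr2:38751312-38751611 (minus, the first of its windows) and IFIT1 at chr10:89392373-89392672 (plus).
SRSF4: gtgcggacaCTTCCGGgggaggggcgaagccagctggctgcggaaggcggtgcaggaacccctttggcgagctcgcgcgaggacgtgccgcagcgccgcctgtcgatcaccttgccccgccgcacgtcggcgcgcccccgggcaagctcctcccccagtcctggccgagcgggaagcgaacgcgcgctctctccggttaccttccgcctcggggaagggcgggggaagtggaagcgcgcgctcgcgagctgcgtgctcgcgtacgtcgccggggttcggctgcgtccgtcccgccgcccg
SRSF5: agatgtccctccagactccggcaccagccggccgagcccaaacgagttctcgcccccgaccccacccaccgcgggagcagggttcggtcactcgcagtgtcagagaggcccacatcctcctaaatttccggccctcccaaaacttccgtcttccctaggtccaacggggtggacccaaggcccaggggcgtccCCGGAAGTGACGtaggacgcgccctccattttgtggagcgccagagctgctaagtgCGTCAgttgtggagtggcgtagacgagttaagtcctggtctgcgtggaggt
SRSF7: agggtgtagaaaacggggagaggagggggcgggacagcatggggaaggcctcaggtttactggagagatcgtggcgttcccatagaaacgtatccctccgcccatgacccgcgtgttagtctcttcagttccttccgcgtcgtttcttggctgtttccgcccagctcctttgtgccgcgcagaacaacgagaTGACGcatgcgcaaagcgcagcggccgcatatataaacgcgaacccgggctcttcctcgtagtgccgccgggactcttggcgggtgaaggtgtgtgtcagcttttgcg
IFIT1: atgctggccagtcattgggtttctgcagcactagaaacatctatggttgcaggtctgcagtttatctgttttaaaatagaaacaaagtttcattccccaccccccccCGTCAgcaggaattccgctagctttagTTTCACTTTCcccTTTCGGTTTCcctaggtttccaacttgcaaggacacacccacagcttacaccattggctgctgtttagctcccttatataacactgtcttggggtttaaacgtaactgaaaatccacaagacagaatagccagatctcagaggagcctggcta

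IFIT1 held 2 ISRE cores, and 0 of the 9 SRSF genes with a window held one, against 3.57% of 35116 windows. The short CRE motif was in the windows of 5 SRSF genes (SRSF1, SRSF3, SRSF5, SRSF7 and SRSF11), against 24.6% of all windows, and so in genes that were higher as well as in SRSF7. The full CRE, TGACGTCA, was in 0 of them, against 1.85% of all windows. SRSF5 held the short CRE motif at 2 places, the first directly after its ETS core, and the ETS core occurred in SRSF4 and SRSF5, against 10.3% of all windows. The GC box GGGCGG was in 4 genes (45% of all windows) and the CCAAT box CCAAT in 1 (34.6% of all windows). GC content of the SRSF windows ran from 53.7% to 74.7%, with a median of 58.7% over all windows, and they held 17 to 48 CpG sites where the median window held 14. The motif counts above are per gene, and SRSF7 and SRSF11 have 2 windows each. The shares beside them are per window and not matched for CpG sites.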

How the data were processed

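Total RNA from 4 cultures was amplified to amino allyl aRNA and coupled to Cy5, per the labels' protocols. The deposited scanner tables hold the median intensity of each spot, in scanner units, read at 3 gains, per the file headers. The authors' deposited table holds background-subtracted intensities with each array's median at 25, with its making not described in these sources. The scanner's background column followed the signal, so the mean of the 384 blank spots was the background. Log2 values came from the spot intensities of the scanner tables, not from the authors' table. Normexp with an offset of 50 and quantile normalization over the 4 arrays (limma 3.58.1, R 4.3.3) were applied. Probes of a gene were averaged. Detected means above the blank mean plus 2 SD.

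Differences between single arrays have no test. The additive limma fit (line and stimulation, lmFit and eBayes) covered the 17085 genes detected on at least 1 array, with Benjamini-Hochberg adjustment, and was run on simulated data. There both lines had the same true responses, array position had no effect, and changes were 2-fold or more. The simulation therefore covers neither the position shifts nor changes as small as those of the called members. The local correction subtracts the median deviation of at least 10 probes of like brightness within 4 rows and 10 columns. Brightness was split at log2 levels of 6, 7 and 8, and all levels above 8 form 1 class. Neighbours of a bright member can therefore be much dimmer than the member. Members, lists and tests were chosen with earlier results of these data known. Named were all members, the 2 highest and 2 lowest genes of each other list by mean response, the interferon genes, DHX58, and the 3 genes nearest to the highest and the lowest member. The number of arrays limits the precision.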

Additional observations from a re-analysis of the deposited data

How the results depend on the processing

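The fit with lines as replicates already compares 12 h with 0 h within each line, and the labels carry no replicate numbers to pair by. Leaving out an array of that fit leaves no residual degrees of freedom. The 4 higher members of the fit became 0 under plain subtraction of the blank level, 1 in the authors' deposited table, 7 after the local position correction (chosen after seeing the data) and 8 with median scaling or no normalization. Its 0 lower members became 1, SRSF7, with an offset of 16, median scaling, position correction by block, a variance trend or the local correction. Without normalization the estimate of SRSF7 reversed to 0.026. Members past 1.5-fold higher in LGP2 cells were 2 as reported, 6 without normalization, 4 with median scaling or in the deposited table, and 1 after the local correction. In 4KR cells they were 0 as reported, 7 without normalization and 1 with median scaling. As reported, 1.83% of all genes were past 1.5-fold higher in LGP2 cells and 1.54% in 4KR cells. For the counts past 1.5-fold in this section, shares of all genes under the other settings are not given. Those counts therefore do not set the members apart from all genes. The share of all genes called in the fit is given as reported (7.95% higher, 7.3% lower) and after the local correction (17.5% higher, 13.4% lower). Under the remaining settings that share is not given. A change there in the number of called members may therefore not be particular to the SRSF genes. For the difference of the responses, the 1 member past 1.5-fold lower became 0 without normalization and 0 after the local correction. At 12 h, 0 members were past 1.5-fold lower in 4KR cells as reported and 1 in the deposited table. Without normalization the median response of all genes was 0.28 in 4KR cells and 0.13 in LGP2 cells, and in the deposited table it was 0.15 and 0.25. Relative to that median, the members' median stayed higher under all settings run, by 0.12 to 0.48 in 4KR cells and by 0.27 to 0.55 in LGP2 cells, and SRSF7 stayed lower in both lines. Relative to it, SRSF1 was below 0 in both lines, and SRSF3 and SRSF11 in 4KR cells, in the deposited table, as was SRSF3 in 4KR cells after the local correction. The cause of these changes was not tested.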
